A study of Mus musculus with 6 samples.

Results

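The genes that drive and mark cell division were followed through luminal progenitor cells of the virgin mouse mammary gland. The set holds 42 genes, chosen by symbol: cyclins, cyclin-dependent kinases (Cdks) and their inhibitors, Rb1 and E2f1, 13 genes of S phase and 15 genes of G2 and mitosis. Each matched 1 of the 18537 gene clusters in the deposited table. The cells were sorted as CD24 low, CD29+ and CD61+ after depletion of cells marked by CD45, Ter119, CD31 and BP-1, from nulliparous adults that carried 2 intact Robo1 alleles (Robo1+/+) or were homozygous for Robo1tm1Matl (Robo1-/-), a knockout of the whole animal rather than of the sorted cells alone. The labels describe both genotypes as littermates bred from Robo1+/- parents, while the study's methods also allow for animals matched by age. The estrous stage of the animals is not given in the sources used here. Robo1 encodes a receptor for the Slit ligands. Poly(A)+ RNA was sequenced in 6 libraries of 2 pooled animals each, gh03, gh09 and gh15 from Robo1+/+ and gh06, gh12 and gh18 from Robo1-/-, and a library is the replicate throughout. The deposited quantity, called the normalized value here, is the read count of a gene divided by 1 size factor per library.

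Cells enter the division cycle when D cyclins bind Cdk4 or Cdk6 and, with cyclin E and Cdk2, phosphorylate the retinoblastoma protein Rb1, which then releases E2f transcription factors. E2f proteins switch on the genes of DNA replication, while B cyclins, Cdk1 and the mitotic kinases are transcribed later, in G2 and mitosis. Resting cells hold little RNA of either set, so its amount in a population is widely read as a sign of how many cells divide. Luminal progenitors of the virgin gland are a mixture of resting and dividing cells. In bulk RNA of sorted cells, fewer dividing cells and less RNA per dividing cell cannot be told apart.

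Promoter letters were counted for the S phase and the mitotic genes. RefSeq promoters of GRCm38.p6, from 250 bases before to 50 bases after the start, were matched by symbol for 32 of the 42 genes; Aurkb, Ccna2, Ccnd1, Ccnd2, Ccne2, Cdkn1c, Gmnn, Mcm4, Rb1 and Tpx2 were not among them. On both strands they were searched for the CCAAT box, for the cell cycle homology region TTTGAA (CHR), an element of genes transcribed in G2 and mitosis, and for the E2f site in the forms TTTCCCGC, TTTCGCGC, TTTGCCGC and TTTGGCGC. A gene with several promoters was counted once. Forms of the E2f site can overlap each other on opposite strands. An E2f site was found in 6 of 11 S phase genes (54.5%; Cdc6, Cdt1, Mcm3, Mcm5, Mcm6 and Mcm7) and in 1 of 12 mitotic genes (8.33%; Cdk1), beside 2.6% of the 27025 genes with a promoter. The CHR ran the other way, with 9 of 12 mitotic genes (75%) and 1 of 11 S phase genes (9.09%; Mcm2), beside 20.2% of all genes. CCAAT was found in 11 of 12 mitotic and 8 of 11 S phase genes, beside 41.1% of all genes. Both a CCAAT and a CHR were found in 9 mitotic genes (75%), beside 8.97% of all genes. Their distance was not considered, and in a gene with several promoters they could lie in different ones. These are matches of letters, not measured binding.

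The upstream stretches below are shown because they carry these letters in the most abundant genes of each set, the 3 of the highest level per length among the 4 S phase genes with an E2f site upstream of the start and among the 6 mitotic genes with a CHR there. Capitals mark E2f sites in the first 3 and CCAAT (or ATTGG on the other strand) and CHR (or TTCAAA) in the last 3. The sequences read 5′ to 3′ along the gene, and all but that of Mcm5 lie on the minus strand. Mcm6, Mcm7 and Mcm5 encode subunits of the replicative helicase. Their stretches lie at chr1:128359733-128359827, chr5:138172029-138172060 and chr8:75109344-75109379. Top2a encodes the topoisomerase that untangles replicated chromosomes, Mki67 the Ki-67 antigen of dividing cells and Ccnb2 a B cyclin, at chr11:99024195-99024428, chr7:135716460-135716579 and chr9:70421559-70421733.
Mcm6: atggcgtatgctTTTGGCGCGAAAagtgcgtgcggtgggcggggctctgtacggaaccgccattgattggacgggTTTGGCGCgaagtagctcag
Mcm7: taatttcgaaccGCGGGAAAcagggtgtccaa
Mcm5: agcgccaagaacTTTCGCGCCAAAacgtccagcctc
Top2a: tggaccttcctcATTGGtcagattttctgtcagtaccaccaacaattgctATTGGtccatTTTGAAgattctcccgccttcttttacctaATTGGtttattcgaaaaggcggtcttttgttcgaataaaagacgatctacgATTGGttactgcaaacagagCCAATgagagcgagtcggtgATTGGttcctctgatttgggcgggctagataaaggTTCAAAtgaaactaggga
Mki67: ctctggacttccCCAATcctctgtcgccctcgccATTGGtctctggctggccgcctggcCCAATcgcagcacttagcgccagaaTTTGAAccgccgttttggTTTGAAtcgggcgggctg
Ccnb2: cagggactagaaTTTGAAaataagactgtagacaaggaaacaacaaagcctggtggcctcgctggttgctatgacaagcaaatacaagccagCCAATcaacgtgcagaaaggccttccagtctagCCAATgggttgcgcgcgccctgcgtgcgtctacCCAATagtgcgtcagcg

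The libraries were checked first. The recovered reads ran from 9727191 (gh18) to 17433868 (gh09). Robo1 itself, the targeted gene, had normalized values of 289 to 574 in Robo1+/+ against 130.1 to 214 in Robo1-/-, with no overlap. All 9 luminal progenitor markers were found, with summed normalized values of 96648 to 108376 in Robo1+/+ against 53666 to 115869.8 in Robo1-/-, lowest in gh18. In gh18 Krt8 was at 11182 and Krt18 at 11522, beside at least 35984 and 28162 in every other library. Cd14 and Epcam were also lowest in gh18, whereas Kit, Elf5, Aldh1a3, Itgb3 and Itga2 were not. Mature luminal markers, such as Prlr and Esr1, were also present in every library at sums of 45881 to 56941 in Robo1+/+ against 58463 to 68734 in Robo1-/-. Basal markers summed to 805 to 2182 in Robo1+/+ against 972 to 1633 in Robo1-/-, and Krt5 and Krt14 were at or below 407 in every library. Of 10 leukocyte markers 8 were found, which summed to 212 to 271 in Robo1+/+ against 119.7 to 154 in Robo1-/-, with Ptprc at no more than 1.46, and the 4 endothelial markers found to 42.2 to 75.2 in Robo1+/+ against 27.7 to 90.7 in Robo1-/-, with Cdh5 at no more than 1.46. Fibroblast and erythroid markers summed to 704 to 832 in Robo1+/+ against 307 to 1039 in Robo1-/- and to 58.2 to 261 in Robo1+/+ against 60.5 to 251 in Robo1-/-. Library gh18 stood apart by base composition, and 41 cell cycle genes were high or low in it according to the GC content of their transcripts (rank correlation across genes -0.77, a description over genes of 1 library). Among the 8 genes under 45% GC all 8 were above their 6-library mean in gh18 (median log2 difference 0.75), and among the 7 of 55% or more, 2 were (median -0.55). Differences are therefore given as deposited and after a GC correction, which subtracted from each library a smooth curve of log2 difference on transcript GC content; the correlation was then 0.13 over the 41 genes and -0.05 over the 15 mitotic genes, but 0.53 over the 13 S phase genes, for which it had been -0.71.

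**Figure D1:**
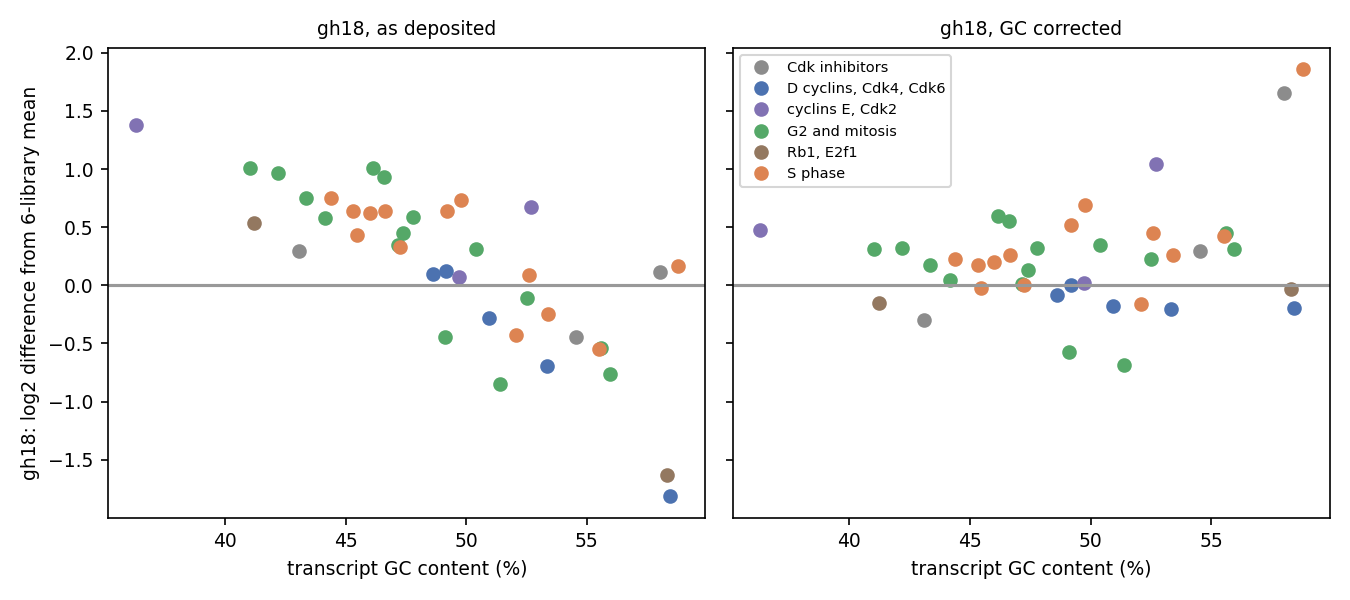
Library gh18 and transcript GC content. Each point is 1 of the 41 tested genes, coloured by role; the x axis is the GC content of the transcript (%) and the y axis the log2 difference of gh18 from the mean of the 6 libraries, as deposited (left) and GC corrected (right). On the left the points run from Ccne2 (36.3% GC, 1.38) to Ccnd3 (58.4% GC, -1.82); on the right Cdt1 and Cdkn2c, both GC-rich but not low in gh18, stand highest.

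The genotypes were then compared. Of the 42 genes, 41 passed the filter on low reads, edgeR's filterByExpr, and Cdkn1c did not. None of the 41 had an adjusted p under 0.05 in limma on log2(value + 1), adjusted over all 13692 genes tested, and no gene of the whole table did; with DESeq2 on the recovered reads 1 gene of the table passed, outside this set. At an unadjusted p under 0.05 limma called 1 of 41 (2.44%), Rb1, higher in Robo1-/-, and 0 lower, beside 1.69% of all tested genes in either direction, 0.767% higher and 0.92% lower; DESeq2 and edgeR on the recovered reads also called Rb1 alone. As deposited, the 3 values of one genotype did not overlap those of the other for 2 of 41 genes (4.88%), Rb1 higher and Cdk4 lower, beside 9.41% of all tested genes (4.83% higher and 4.58% lower). The first share is near the background and the second is below it. The difference between genotype means was smaller than the standard deviation between libraries of a genotype for 34 of the 41 genes, as for 9886 of all 13692 tested genes. The log2 fold change, Robo1-/- over Robo1+/+, was above 0 for 25 genes and below 0 for 16, with a median of 0.07 beside 0.002 for all tested genes; after GC correction the split was 21 to 20, and without gh18 the median was -0.10.

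**Figure D2:**
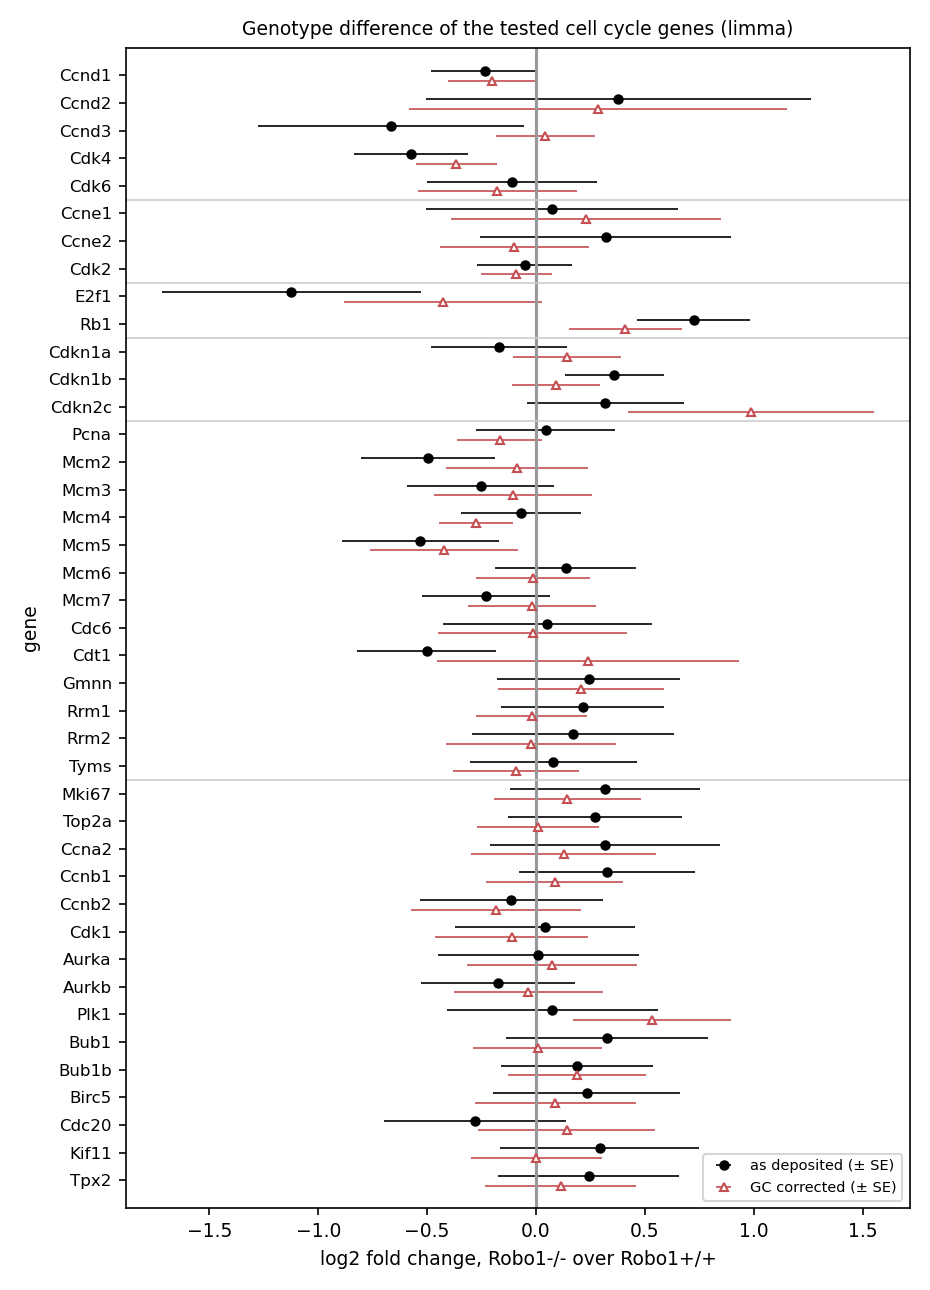
Log2 fold change of the 41 tested genes, Robo1-/- over Robo1+/+ (x axis), by gene (y axis), from limma with 3 libraries a genotype. Filled circles are the values as deposited and open triangles those after GC correction, with bars of 1 standard error; Rb1 (0.72) is the highest and E2f1 (-1.12) the lowest as deposited, and both lie nearer 0 after correction.

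Rb1, the retinoblastoma protein that holds E2f in check, lies on the minus strand of chromosome 14 from 73583480 to 73725629 (NCBI build 37). Its normalized values were 2230.3, 3717 and 2275 in gh03, gh09 and gh15 and 3877, 4412 and 4973 in gh06, gh12 and gh18. Every Robo1-/- library was above every Robo1+/+ library, though gh09 was close to gh06. This gave a log2 fold change of 0.72 (SE 0.26, n = 3 and 3, limma p = 0.027, adjusted p = 0.858, and 0.549 to 0.999 over the alternatives), and the two-sided exact permutation p of 0.1 is the smallest this design allows. The difference depended on the processing. After GC correction it was 0.41 and no longer past an unadjusted p of 0.05 (limma adjusted p = 0.999). The genotypes then overlapped, with gh18 (log2 difference from the 6-library mean -0.15) below gh09 (0.31). The Rb1 transcript has 41.2% GC and its highest value as deposited was in gh18. Leaving out gh03, gh15 or gh12 also took the unadjusted limma p above 0.05, with log2 fold changes of 0.60, 0.61 and 0.72. Exons of Lpar6 (408 bases) and Rcbtb2 (488 bases) overlap those of Rb1 on the opposite strand, and strand use in counting is not given in the sources used here. Rcbtb2 had values of 449, 526 and 471 in Robo1+/+ against 664, 702 and 843 in Robo1-/-, without overlap, and Lpar6 275 to 327 and 335 to 423. The sums of mature luminal and leukocyte markers above were also apart by genotype, but not every marker in them was. Prlr, the largest of the mature luminal sum, was at 20097 to 31025 in Robo1+/+ against 26868 to 37136 in Robo1-/-. The mean log2(value + 1) of the mature luminal markers was 11.62 ± 0.12 against 11.40 ± 0.35 (SD). Of the leukocyte markers, Cd74 was at 47.8 to 133 against 23.4 to 27.6, while Cd68 overlapped, at 86.5 to 134 against 65.7 to 111. The part of these markers in the Rb1 values was not tested.

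E2f1, the activator that Rb1 restrains, had the most negative log2 fold change of the set (chromosome 2, 154385143 to 154395628, minus strand). Its normalized values were 309, 108 and 187 in Robo1+/+ against 100.1, 149 and 39.4 in Robo1-/-. The groups overlapped, since gh12 was above gh09, and both extremes, gh03 and gh18, rested on single libraries. The log2 fold change was -1.12 (SE 0.59, limma adjusted p = 0.858), and the gene has 58.3% GC and only 27 reads in gh18. It was -0.43 after GC correction and -0.59 without gh18, and without gh12 it was -1.53, past an unadjusted p of 0.05 (limma adjusted p = 0.781).

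The D cyclins and their kinases, which open G1, were unequal in level. Levels between genes are compared as reads per kilobase of transcript, scaled to the total reads of the library (RPKM). Ccnd1 stood at 106 ± 18.7 in Robo1+/+ against 87.0 ± 22.1 in Robo1-/- (mean RPKM ± SD, n = 3), Ccnd3 at 23.2 ± 4.92 and 17.1 ± 10.6, and Ccnd2 at 0.21 ± 0.20 and 0.20 ± 0.11 with 3 to 28 reads a library. Cyclin D1 was thus the main D cyclin by RNA in all 6 libraries. Cdk4 likewise stood at 102 ± 22.3 and 66.2 ± 15.5 RPKM and Cdk6, the other partner of D cyclins, at 3.22 ± 1.07 and 2.87 ± 0.93. Ccnd1 had normalized values of 6271, 4519 and 5167 in Robo1+/+ against 3838, 5853 and 3995 in Robo1-/-. The genotypes overlapped, with gh12 above both gh09 and gh15, and the log2 fold change was -0.24 (SE 0.25). Ccnd1 shares 818 exonic bases with Oraov1 on the opposite strand.

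Cdk4 (chromosome 10, 126500590 to 126504976, plus strand) was the 1 gene with every Robo1-/- library below every Robo1+/+ library. Its normalized values were 3489, 2381 and 2592 in Robo1+/+ against 2211, 2096 and 1412 in Robo1-/-. The gap between the groups was narrow, from 2381 in gh09 to 2211 in gh06, and gh18 was the lowest. The log2 fold change was -0.57 (SE 0.26, limma adjusted p = 0.858, two-sided exact permutation p = 0.1), -0.37 after GC correction and -0.37 without gh18. Tspan31, which shares 604 exonic bases with Cdk4 on the other strand, was at 1138 to 1244 in Robo1+/+ against 1024 to 1428 in Robo1-/-. The marker sums that were apart by genotype hold here as for Rb1, and their part was not tested.

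Ccnd3 depended on 1 library. It had normalized values of 725, 762 and 497 in Robo1+/+ against 691, 681 and 146 in Robo1-/-. Only gh18 was low, and the transcript, at 58.4% GC, is among the most GC-rich of the set. The log2 fold change of -0.66 (SE 0.61) became 0.04 after GC correction and 0.08 without gh18. Cdk6 ranged from 114 to 219 in Robo1+/+ and, for Robo1-/-, from 96.2 to 192, with the order of the libraries unlike that of Cdk4.

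Cyclin E and Cdk2 carry the cell from G1 into S phase. Ccne1 had normalized values of 186, 47.8 and 116 in Robo1+/+ against 66.8, 109 and 166 in Robo1-/-, a ratio of 3.89 between gh03 and gh09 within one genotype. Ccne2 had 205, 104 and 169.8 against 102, 154 and 448. For both genes gh09 was the lowest Robo1+/+ library and gh06 the lowest Robo1-/- library, while gh18 was the highest Robo1-/- library. Ccne2, at 36.3% GC the most GC-poor transcript of the set, had a log2 fold change of 0.32 as deposited and -0.10 after GC correction. It shares 609 exonic bases with Ints8 on the opposite strand, which was at 704 to 817 in the other 5 libraries and at 1509 in gh18. Cdk2, the kinase, had the smallest ratio of highest to lowest library of all 42 genes. Its values were 808, 679 and 792 in Robo1+/+ against 609, 818 and 782 in Robo1-/-, a ratio of 1.34 between the highest and the lowest library, with a log2 fold change of -0.05 (SE 0.22).

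Of the Cdk inhibitors, which stop the cycle, Cdkn1a (p21) was the most abundant. It stood at 112 ± 34.0 RPKM in Robo1+/+ against 93.9 ± 21.6 in Robo1-/-, Cdkn1b (p27) at 9.996 ± 1.17 and 12.4 ± 2.02, Cdkn2c (p18, an inhibitor of Cdk4 and Cdk6) at 2.25 ± 0.16 and 2.82 ± 1.07, and Cdkn1c (p57) at 0.20 to 0.47 over the 6 libraries with 4 to 15 reads each. The normalized values of Cdkn1a were 1855, 3420.3 and 3390.2 in Robo1+/+ against 2586, 3030.3 and 1926 in Robo1-/-. In Robo1+/+ the library with the lowest Cdkn1a, gh03, was the one with the highest level of every S phase gene, described next. In Robo1-/- the S phase mean was highest in gh18 and lowest in gh06, as deposited and after GC correction. There gh18 had the lowest Cdkn1a as deposited. After GC correction gh18 had the highest Cdkn1a of Robo1-/- (log2 difference from the mean of the 6 libraries 0.30) and gh06 the lowest (-0.17). Cdkn1b had values of 581, 566 and 691 against 645, 881 and 848, where gh15 alone of Robo1+/+ was above the lowest Robo1-/- library. Its log2 fold change was 0.36 (SE 0.23, limma adjusted p = 0.858) as deposited and 0.09 after GC correction. Cdkn2c was highest in gh12 as deposited, at 137 beside 65.6 to 90.5 in the other libraries, and its log2 fold change was 0.32 (SE 0.36). After GC correction that change was 0.99. The highest library was then gh18, with a log2 difference from the 6-library mean of 1.65, beside 0.56 in gh12.

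**Figure D3:**
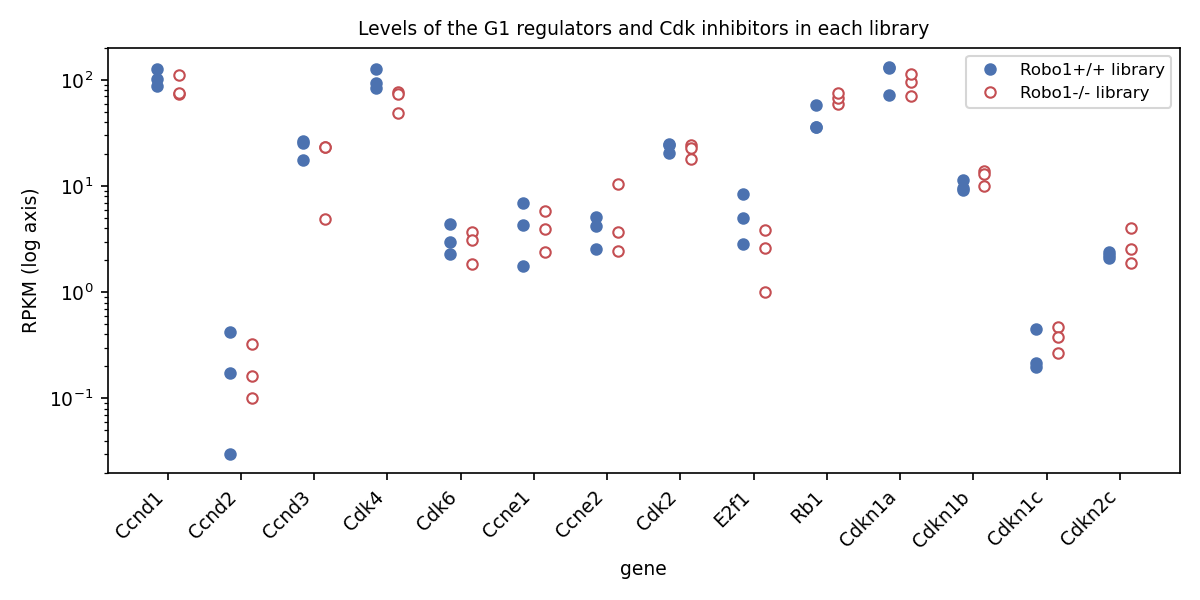
Levels of 14 regulators of G1 and Cdk inhibitors in RPKM on a log axis (y) by gene (x); each point is 1 library, filled for Robo1+/+ and open for Robo1-/- (3 each). Ccnd1, Cdk4, Cdkn1a and Rb1 lie between 35.9 and 132 in every library, and Ccnd2 and Cdkn1c at 0.47 or below.

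The 13 S phase genes moved largely together between libraries of one genotype. Their median standard deviation between libraries of a genotype was 0.46 on the log2 scale as deposited, near the 0.43 of all tested genes. After GC correction it was 0.49, above the 0.315 of all tested genes. The genotype difference was below the standard deviation between libraries for 10 of 13, and for 12 of 13 after GC correction, when the same was so for 9886 of all 13692 tested genes and for 9753 of 12538. In Robo1+/+, gh03 was the highest and gh09 the lowest library for 13 of 13 genes; over all tested genes gh03 was the highest of Robo1+/+ for 37.5% and gh09 the lowest for 29.2%. In Robo1-/-, gh06 was the lowest for 9 of 13, beside 32.8% of all tested genes, and for 12 of 13 after GC correction, beside 27.5%. Over all 6 libraries the highest was gh18 for 7 of 13 and gh03 for 5 as deposited, beside 36.2% and 15.6% of all tested genes. After GC correction it was gh18 for 2 and gh03 for 10, beside 29.3% and 20.3%. The mean log2(value + 1) over the 13 genes differed by 0.93 between gh03 and gh09, which is 1.91-fold, while the genotype means were 9.47 ± 0.47 and 9.38 ± 0.36 (SD, n = 3 each). None of the 13 had an unadjusted p under 0.05 in limma, DESeq2 or edgeR, and the median log2 fold change was 0.04, or -0.02 after GC correction and -0.26 without gh18.

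Pcna, the sliding clamp of DNA polymerase, had the highest mean RPKM of the 42 genes over the 6 libraries, though Cdkn1a was above it in gh09, gh15 and gh06 and nearly equal to it in gh12. It stood at 129 ± 26.3 RPKM in Robo1+/+ against 132 ± 52.0 in Robo1-/-. Its normalized values were 3160.4, 2144 and 2574 against 1936, 2410.1 and 4100.2, with gh18 highest and gh06 lowest of the 6. Between genotypes its log2 fold change was 0.04 (SE 0.32), and -0.26 without gh18.

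The 6 subunits of the Mcm2-7 helicase, which unwinds DNA at the fork, had mean levels from 14.7 RPKM (Mcm2) to 37.3 (Mcm6). Mcm5 had normalized values of 1805, 715 and 1234 in Robo1+/+ against 740.0, 986 and 722 in Robo1-/-. Its gh03 value was 2.53 times its gh09 value, while its log2 fold change between genotypes was -0.53 (SE 0.36, limma adjusted p = 0.858); without gh09 that change was -0.89, past an unadjusted p of 0.05 (limma adjusted p = 0.988). Mcm2 had 1116, 569.8 and 718 against 607, 602 and 444, with a log2 fold change of -0.50 (SE 0.31) that was -0.09 after GC correction. Mcm6 differed from the other subunits in the Robo1-/- libraries. Its values were 2440.2, 1781 and 2030.0 in Robo1+/+ against 1424, 3034 and 2716 in Robo1-/-, with gh12 the highest of 6, whereas gh12 was below gh03 for the other 5 subunits. Mcm3, Mcm4 and Mcm7 had log2 fold changes of -0.25, -0.07 and -0.23, each within 1 SE of 0. Mcm7 shares exonic bases with Ap4m1 and Cops6 on the opposite strand, and with Mir25 and Mir93 on its own.

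Cdc6 and Cdt1 load the helicase on origins and Gmnn (geminin) blocks Cdt1. Cdc6 had normalized values of 186, 72.9 and 143 in Robo1+/+ against 82.9, 131 and 198 in Robo1-/-. Cdt1 had 324, 215 and 255 against 183, 138 and 247, and only gh18 of Robo1-/- reached the Robo1+/+ range. Its log2 fold change was -0.50 (SE 0.32, limma adjusted p = 0.858), -0.71 without gh18, which passed an unadjusted p of 0.05 (limma adjusted p = 0.936), and 0.24 after GC correction, so that the sign depended on how gh18 was treated. Gmnn ran with the other S phase genes, at 121 to 219 in Robo1+/+ against 114 to 286 in Robo1-/-.

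Nucleotides for replication are made by ribonucleotide reductase and thymidylate synthase. Rrm2, the regulated subunit of the reductase, had normalized values of 906, 318 and 676 in Robo1+/+ against 426, 688 and 947 in Robo1-/-. The gh03 value was 2.85 times that of gh09, the largest such ratio of the 13, and the genotype change was 0.17 (SE 0.46). Rrm1, the large subunit, and Tyms, the synthase, had the same library order as Rrm2 in Robo1+/+, with ratios of 1.86 and 1.87.

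The 15 genes of G2 and mitosis also differed between libraries of a genotype. Library gh09 was the lowest of Robo1+/+ for 14 of 15, Aurka being the exception, beside 29.2% of all tested genes. Library gh06 was the lowest of Robo1-/- for 13 of 15, Aurka and Plk1 being the exceptions, beside 32.8%. Unlike the S phase genes, gh03 was the highest of Robo1+/+ for 6 of 15, beside 37.5%. The mean log2(value + 1) over the 15 genes was 1.07 higher in gh12 than in gh06, which is 2.10-fold, and the genotype means were 8.63 ± 0.35 and 8.77 ± 0.57 (SD, n = 3 each). The genotype difference was below the standard deviation between libraries for all 15 genes as deposited, and for 14 of 15 after GC correction, beside the shares of all tested genes given for S phase. None had an unadjusted p under 0.05 in limma, DESeq2 or edgeR, and the median log2 fold change was 0.23 as deposited, 0.09 after GC correction and -0.04 without gh18.

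Mki67 had normalized values of 3096, 1564 and 2168 in Robo1+/+ against 1576, 2763 and 4661 in Robo1-/-. Top2a had 2653, 1455 and 2211 against 1452, 2728 and 3789. In both genes gh09 and gh06 were the 2 lowest libraries and nearly equal, and gh18 was the highest. The log2 fold changes were 0.32 (SE 0.44) and 0.27 (SE 0.40), which without gh18 were -0.07 and -0.04. Both are GC-poor (46.6% and 43.4%), as are Ccna2, Bub1 and Kif11, whose gh18 values were likewise the highest of 6. Ccna2, cyclin A2, ranged from 319 to 747 in Robo1+/+ and, for Robo1-/-, from 311 to 1134. It shares 512 exonic bases with Exosc9 on the opposite strand.

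The B cyclins and Cdk1 form the kinase that starts mitosis. Ccnb1 had normalized values of 369, 273 and 416 in Robo1+/+ against 242, 588 and 582 in Robo1-/-, Ccnb2 319, 259 and 382 against 206, 543 and 223, and Cdk1 545, 340.1 and 573 against 274, 693 and 609.9. All 3 were higher in gh12 than in gh06, by 2.43-fold, 2.64-fold and 2.53-fold, and in gh15 than in gh09. Their log2 fold changes between genotypes were 0.33, -0.11 and 0.04 (SE 0.40, 0.42 and 0.41). Without gh06 that of Ccnb1 was 0.75, past an unadjusted p of 0.05 (limma adjusted p = 0.549).

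Aurka and Plk1, kinases of the spindle and of mitotic entry, set gh12 apart. Plk1 had normalized values of 94.2, 79.9 and 113 in Robo1+/+ against 88.6, 196 and 56.9 in Robo1-/-, and Aurka 202, 324 and 268 against 259, 480.0 and 144. For both genes gh12 was the highest library and gh18 the lowest, with ratios of 3.44 and 3.32 between them. Plk1 has 56.0% GC and 39 reads in gh18, and its log2 fold change of 0.08 (SE 0.48) was 0.53 after GC correction. Cdc20, the activator of the ligase that ends mitosis, was also highest in gh12, at 471, beside 189 in gh06 and 197 in gh18. It has 55.6% GC. After GC correction gh12 stayed the highest library for Plk1, Aurka and Cdc20. Library gh18 then stayed lowest for Aurka only (log2 difference from the 6-library mean -0.68), and was at 0.31 for Plk1 and 0.45 for Cdc20.

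Bub1 and Bub1b (spindle checkpoint), Aurkb and Birc5 (survivin, with Aurkb in the chromosomal passenger complex), Kif11 and Tpx2 (spindle assembly) complete the set. Their normalized values ran from 125 (Birc5, gh09) to 1325 (Kif11, gh18), and all 6 had gh09 as the lowest Robo1+/+ library and gh06 as the lowest Robo1-/- library. Their log2 fold changes lay between -0.18 (Aurkb) and 0.33 (Bub1), each under 1 SE.

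**Figure D4:**
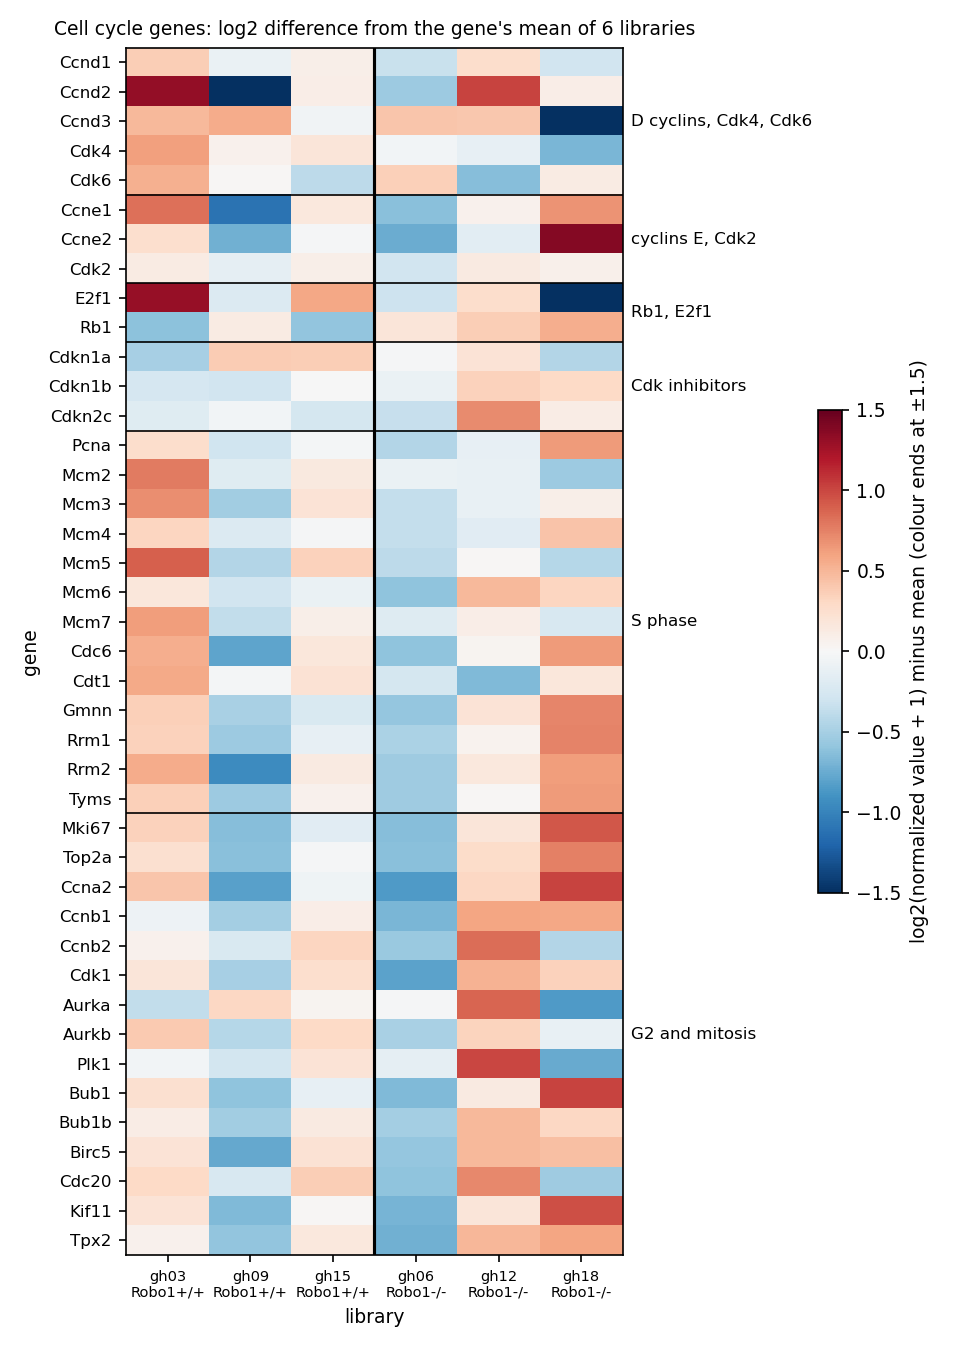
Log2 difference of each of the 41 tested genes (rows, grouped by role) from its own mean over the 6 libraries (columns), as deposited; red is above and blue below the mean, and colours end at ±1.5. The S phase and mitotic rows are mostly blue in gh09 and gh06 and red in gh18. Library gh03 is red in S phase rows and, more weakly, in most mitotic rows (mean 0.50 and 0.15). Library gh12 is red in mitotic rows (mean 0.50) and mixed in S phase rows (mean -0.008).

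Libraries gh09 and gh06 were therefore low in both sets. They were both the lowest of their genotype for 28 of the 41 genes (68.3%), beside 12% of all tested genes, and for 31 of 41 after GC correction, beside 11.1%. They were the 2 lowest of all 6 libraries for 24 of 41, beside 8.09%. The median standard deviation between libraries of a genotype was 0.56 on the log2 scale for the 41 genes (0.46 for S phase, 0.59 for mitotic genes), beside 0.43 for all tested genes, and 0.48 beside 0.315 after GC correction. Genes of a pathway are not independent, so these shares are given as a description of 6 libraries. The basal marker sum moved with the S phase level in Robo1+/+, at 2182 in gh03, 1311 in gh15 and 805 in gh09. In Robo1-/- it was highest in gh06, at 1633, where the S phase level was lowest, and stood at 972 in gh12 and 1110 in gh18. The luminal progenitor sum ran opposite to the S phase level in Robo1+/+, at 96648 in gh03, 105795 in gh15 and 108376 in gh09. It was lowest in gh18 of Robo1-/-, where Krt8 and Krt18 were low. After GC correction the mean log2(value + 1) over the 9 markers was lowest in gh03, at 11.95, with 12.18 in gh15 and 12.29 in gh09. In Robo1-/- it was then 12.16 in gh06, 12.37 in gh12 and 12.26 in gh18. Tnfsf11 (RANKL), one of the mature luminal markers, was at 1660 in gh03 and at 0.92 to 439 in the other 5 libraries. The mature luminal sum was however lowest in gh03, at 45881, as were Pgr (1721), Esr1 (1346) and Foxa1 (1752). Prlr, Ly6a, Areg and Cited1 were neither highest nor lowest there. Depth also moved with the S phase level in part, since gh09 was the deepest library and gh03 the shallowest of Robo1+/+. In Robo1-/- the reads of gh06 (12183461) lay between those of gh18 and gh12 (15185303). Their part in the pattern was not tested.

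The S phase set was then set against the mitotic set in each library. The mean log2(value + 1) of the S phase genes minus that of the mitotic genes was 1.07 in gh03, 0.76 in gh09 and 0.68 in gh15, and 0.88 in gh06, 0.22 in gh12 and 0.74 in gh18. Library gh12 was the one in which the mitotic genes stood highest against the S phase genes, and gh03 the one in which they stood lowest. The 2 differed by 0.85, a 1.80-fold shift, which was 0.83 after GC correction and 0.96 without Ccna2, Top2a and Mki67, whose RNA is also high outside mitosis. Taken by gene, gh12 was above gh03 for 1 of 13 S phase genes (Mcm6) and for 10 of 15 mitotic genes (9 of 15 after GC correction), beside 51.8% of all tested genes. By genotype the difference was 0.84 ± 0.21 in Robo1+/+ against 0.61 ± 0.35 in Robo1-/- (SD, n = 3 each). The groups overlapped, and without gh12 the genotype difference of -0.23 was -0.03. After GC correction it was -0.14, and the value of gh18 rose from 0.74 to 0.93.

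Genes outside the set, from lists of other replication genes (49 of 56 listed symbols found, in 50 clusters) and other mitotic genes (57 of 58 found), had the same library order. Their mean log2 differences from the 6-library mean were, for replication genes, 0.40, -0.36 and 0.06 in gh03, gh09 and gh15 and -0.35, 0.04 and 0.21 in gh06, gh12 and gh18. For mitotic genes they were 0.21, -0.42 and 0.16, then -0.56, 0.33 and 0.28. Replication minus mitotic was lowest in gh12 here too, at -0.21, beside 0.27 in gh03 and 0.30 in gh06.

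**Figure D5:**
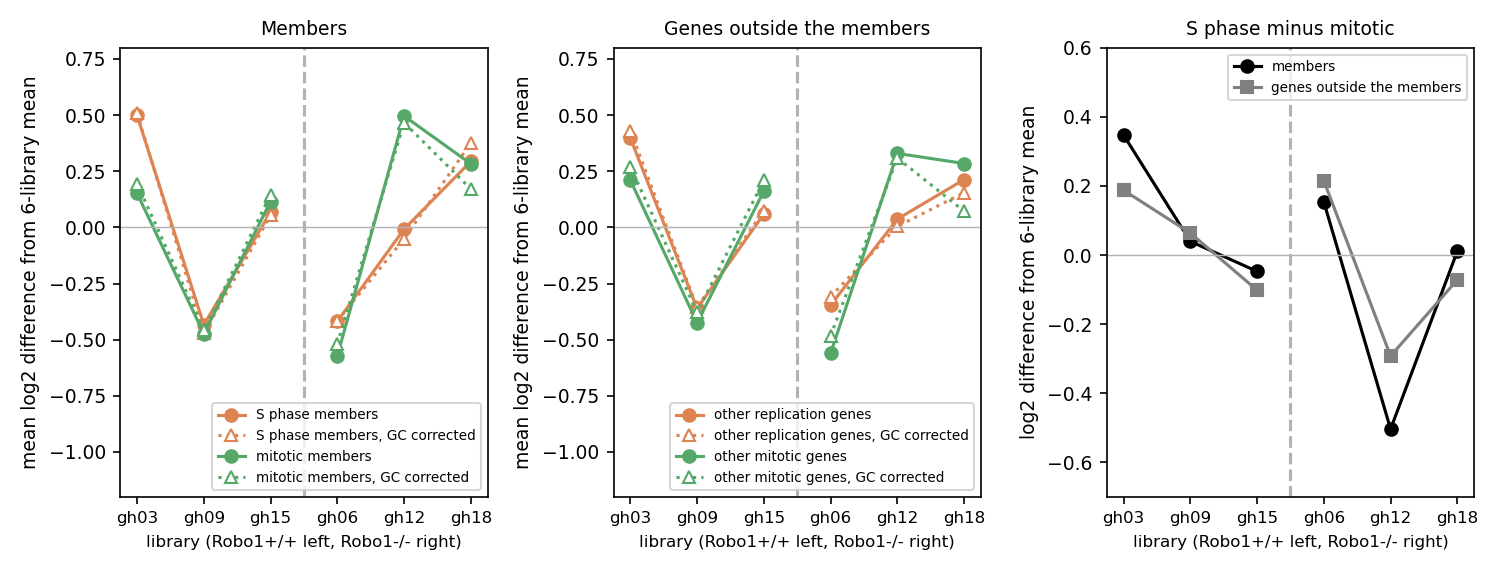
Mean log2 difference from the 6-library mean (y axis) by library (x axis), for S phase (orange) and mitotic (green) genes of the set (left) and for replication and mitotic genes outside it (middle), as deposited (filled circles) and GC corrected (open triangles); lines join libraries of a genotype only for the eye. The right panel shows S phase minus mitotic for both gene sets: gh09 and gh06 are low in both gene classes (-0.43 and -0.42 for S phase, -0.47 and -0.57 for mitotic members), and gh12 is the lowest in the right panel for both.

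Between genotypes these further lists gave few calls. At an unadjusted limma p under 0.05, 0 of 50 replication clusters and 1 of 57 mitotic genes passed, beside 1.69% of all tested genes; none had an adjusted p under 0.05. The mitotic gene was Ccnf, cyclin F, a subunit of a ubiquitin ligase. Its normalized values were 225, 252 and 272 in Robo1+/+ against 131, 154 and 89.0 in Robo1-/-. All Robo1-/- libraries were below all Robo1+/+ libraries, and the log2 fold change was -1.03 (SE 0.30, limma adjusted p = 0.858, and 0.549 to 0.999 over the alternatives), or -0.81 after GC correction. Of 16 further genes of the Rb, E2f and DREAM complexes 0 passed, with a median log2 fold change of -0.06. Of 20 clusters of further cycle inhibitors and p53 targets 1 passed, Gadd45a, a stress gene that restrains G2. Its values were 975, 1302 and 1129 in Robo1+/+ against 2504, 1800.02 and 1733 in Robo1-/-, without overlap. The log2 fold change was 0.82 (SE 0.23, limma adjusted p = 0.858, and 0.549 to 0.999 over the alternatives), or 0.78 after GC correction. DESeq2 and edgeR gave the same counts for the 4 lists. Without gh18 limma gave 0, 1, 1 and 2, beside 4.23% of all tested genes. The medians of the lists lay between -0.06 and 0.13, beside 0.002 for all tested genes.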

How the data were processed

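Poly(A)+ RNA of sorted luminal progenitors was measured in 6 libraries, grouped by the genotype in the labels, with 2 animals a library; p-values measure the spread between such pools. Per the labels and the study's methods, the authors cut paired reads to 75 bases, set aside repeat reads (bowtie2), aligned what was left by TopHat on NCBI37/mm9 and scaled the counts in DESeq2. The deposited values are a normalized signal per gene, a read count divided by 1 size factor per library. The counting tool, its use of strand and its rule for reads with several places are not given in the sources used here.

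Dividing by what 1 read is worth in each library (0.784 to 1.46) gave whole reads for 100% of the values within the rounding of the deposited decimals, 9727191 to 17433868 reads a library. The value of 3 reads, 2.35 to 4.38, was taken as the floor; it covers counting error only. The main test was limma 3.58.1 (R 4.3.3) with the empirical Bayes trend on log2(value + 1), for the 13692 genes kept by filterByExpr of edgeR 4.0.16, with Benjamini-Hochberg adjustment over all of them; a fold change on this scale understates the change of low genes. Single genes also had a two-sided exact permutation test over the libraries. Alternatives were DESeq2 1.42.0 and edgeR's quasi-likelihood test on the recovered reads, TMM scaling, 2 filters, pseudocounts of 0.5 and 5, each library left out and the GC correction (a lowess curve of span 0.3 on transcript GC content, 12538 genes). Scripts were tested on simulated data. Positions, lengths and GC content come from the longest coding transcript in GENCODE M1 on NCBI build 37, found for all 42 genes; RPKM was computed from recovered reads. None of the 42 genes shared more than 2.39% of the 75-base sequences of its longest coding transcript with another coding gene, the highest being Tyms. All 42 genes could be named; from the other lists, genes with an unadjusted p under 0.05. Members and lists were chosen with earlier results of these data known.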

Additional observations from a re-analysis of the deposited data

How the results depend on the processing

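No gene of the set reached an adjusted p of 0.05 under any alternative run, the lowest being 0.549 in limma without gh06, and 31 of the 41 changed sign under some alternative, in 64 of 573 values, 47 of them with 1 library left out. Ccnb1, Ccnd1, Cdk4, Cdkn1b, Cdkn2c, E2f1, Mcm2, Mcm5, Rb1 and Tpx2 kept their sign in every alternative run, but their size moved: with 1 library left out they ranged from 0.11 to 0.75 (Ccnb1), from -0.43 to -0.11 (Ccnd1), from -0.69 to -0.37 (Cdk4), from 0.28 to 0.50 (Cdkn1b), from 0.043 to 0.57 (Cdkn2c), from -1.53 to -0.59 (E2f1), from -0.71 to -0.23 (Mcm2), from -0.89 to -0.22 (Mcm5), from 0.60 to 0.96 (Rb1) and from 0.0080 to 0.66 (Tpx2). After GC correction the sign was reversed for Ccnd3 (0.043), Ccne2 (-0.10), Cdk1 (-0.11), Cdkn1a (0.14), Pcna (-0.17), Mcm6 (-0.012), Cdc6 (-0.015), Cdt1 (0.24), Rrm1 (-0.020), Rrm2 (-0.022), Tyms (-0.092) and Cdc20 (0.14). With DESeq2 and edgeR the log2 fold changes of Ccnb2 became 0.016 and 0.0099 and those of Ccne1 -0.030 and -0.051, and with TMM scaling that of Aurka became -0.0016. With 1 library left out, the ranges of the log2 fold changes that crossed 0 were those of Mki67 (-0.070 to 0.71), Top2a (-0.038 to 0.65), Ccna2 (-0.11 to 0.82), Ccnb2 (-0.56 to 0.14), Ccnd2 (-0.52 to 1.13), Ccnd3 (-1.04 to 0.077), Ccne1 (-0.46 to 0.51), Ccne2 (-0.29 to 0.77), Cdk1 (-0.21 to 0.46), Cdk2 (-0.13 to 0.079), Cdk6 (-0.33 to 0.18), Cdkn1a (-0.46 to 0.0094), Pcna (-0.26 to 0.28), Mcm3 (-0.58 to 0.030), Mcm4 (-0.30 to 0.093), Mcm6 (-0.071 to 0.47), Mcm7 (-0.47 to 0.025), Cdc6 (-0.33 to 0.37), Gmnn (-0.066 to 0.59), Rrm1 (-0.11 to 0.51), Rrm2 (-0.26 to 0.49), Tyms (-0.22 to 0.36), Aurka (-0.43 to 0.44), Aurkb (-0.43 to 0.024), Plk1 (-0.41 to 0.47), Bub1 (-0.100 to 0.74), Bub1b (-0.026 to 0.49), Birc5 (-0.093 to 0.58) and Kif11 (-0.12 to 0.72). The count of genes with an unadjusted p under 0.05 was 1 in limma, DESeq2 and edgeR, beside 1.69%, 1.81% and 1.61% of all genes tested in each. After GC correction it was 0, beside 1.57%. With 1 library left out it was 0 without gh03 or gh15, beside 0.949% and 0.855%, and 1 (E2f1) without gh12, beside 0.957%. It was 2 without gh09 (Rb1 and Mcm5), gh06 (Rb1 and Ccnb1) or gh18 (Rb1 and Cdt1), beside 1.23%, 6.42% and 4.23%. The genotype difference of the S phase mean ranged from -0.33 (without gh09) to 0.14 (without gh03), and that of the mitotic mean from -0.075 (without gh12) to 0.46 (without gh06). The cause of these changes was not tested. For the orders of the libraries the alternatives were chosen after the data were seen. Over GC correction, TMM scaling, the filters and the pseudocounts, 27 to 31 genes had gh09 and gh06 lowest in their genotypes, 13 of 13 S phase genes had gh03 highest of Robo1+/+, and S phase minus mitotic in gh03 less gh12 was 0.83 to 0.85, but 0.96 without Ccna2, Top2a and Mki67 (0.94 with GC correction too). Which library was highest of all 6 did change: after GC correction gh03 went from 6 to 14 of the 28 S phase and mitotic genes and gh18 from 13 to 4. Over all tested genes gh03 went from 15.6% to 20.3% and gh18 from 36.2% to 29.3%. With 3 libraries a genotype an exact permutation test cannot go below 0.1, and the median SE of 0.40 on the log2 scale limits what could be detected. No paired analysis was run, because the replicate names of the labels are not shared between the genotypes.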
